A study of Mus musculus with 29 samples.

Results

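The genes described here encode the enzymes that make hydrogen peroxide, superoxide and nitric oxide in the gut wall. They are the dual oxidases Duox1 and Duox2 with their maturation factors Duoxa1 and Duoxa2, the epithelial NADPH oxidase Nox1 with its organizer Noxo1 and its activator Noxa1, the phagocyte oxidase subunits Cybb and Ncf1, and the inducible nitric oxide synthase Nos2. They were chosen by symbol through the Ensembl identifiers of the count table. The rule used no measured value, but earlier results of these data were known when the genes were chosen. All 10 were found among the 54532 genes of the table, and all 10 were among the 18616 genes with a mean of at least 3 counts over the 29 mice.

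Dual oxidases sit in the apical membrane of epithelial cells and release hydrogen peroxide into the lumen, and they leave the endoplasmic reticulum only with the matching DUOXA protein. NOX1 makes superoxide in colonic epithelium once NOXO1 and NOXA1 have assembled with it, whereas the phagocyte oxidase holds gp91phox (Cybb) in the membrane and p47phox (Ncf1) in the cytosol of neutrophils and macrophages until they are activated. NOS2 makes nitric oxide from arginine in both epithelial cells and phagocytes, and inflammatory cytokines are known to induce it together with Duox2 and Duoxa2.

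Colon segments of 29 mice in 9 groups had been sequenced as polyadenylated RNA to compare colitis models, and each of the 6 models was set against its own control. On the Balb/C background the labels give 3 untreated wild-type controls, 3 mice treated with DSS (3% in the drinking water for 5 days, with the tissue taken at day 10 upon recovery), 3 with DNBS (3 mg in 50% ethanol, given rectally) and 4 named here IL-10 deficiency, which the labels describe as Balb/C under an IL10 blocking antibody and the treatment text as an antibody to the IL-10 receptor with tissue taken after 4 weeks. The Balb/C background also holds 3 untreated Rag2-/- controls and 4 TRUC mice, which lack both Tbx21 and Rag2 and received no treatment. The remaining groups are labelled C57BL/6 Rag1-/-: 3 untreated controls, 3 mice culled 7 days after an agonist antibody to CD40 (50 µg), and 3 TCT mice that had received naive CD4+ T cells 6 to 8 weeks earlier, whose recipients the treatment text gives as Rag2-/- instead. Rag-deficient mice make no T or B cells of their own, and TCT restores T cells. DSS, DNBS and IL-10 deficiency share the wild-type controls, and TCT and anti-CD40 share the Rag1 controls, so changes within each of these sets are not independent. The labels give no age, sex, batch or position of the segment along the colon, and n counts mice.

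Total counts ran from 10725564 to 14977094 per mouse, and levels are given as CPM, the count scaled to a common library size after TMM adjustment, on which 3 counts, the upper limit that a count of 0 allows from counting error, stand between 0.179 and 0.314 CPM. Several libraries went against their labels or stood apart. Rag2 transcripts were counted at 1.13 to 2.21 CPM in Rag2 controls, 5.13 to 6.93 in TRUC, 0.442 to 1.72 in the libraries labelled Rag1 controls and 3.44 to 8.49 in anti-CD40, while TCT libraries had none and instead held Rag1 transcripts at 1.85 to 2.88 CPM, where no other group passed 0.295. TCT therefore differed from its labelled control in which Rag transcript was counted, and its results are also given against the other controls. Summed markers of B cells were at most 1.83 CPM in the 5 groups labelled Rag-deficient and at least 18.0 in the others. Il10 transcripts stood at 5.23 to 11.5 CPM in IL-10 deficiency against 0.0762 to 0.266 in wild-type controls, and Tbx21 transcripts at 2.12 to 4.63 CPM in TRUC against 0.0765 to 0.529 in Rag2 controls, so neither gene's reads check its label. The 4 homeobox genes of the distal colon (Hoxd13, Hoxa13, Hoxb13, Hoxd12) summed to 725 to 944 CPM in wild-type controls, to 778 and 821 in IL-10 deficiency mice 1 and 2, to 420.3 in mouse 3 and to 1.25 in mouse 4, and DSS mouse 8 held the highest Il1b and Il22 of all libraries. Epithelial markers were abundant in all 29 libraries, from 5217 to 15834 CPM summed over 6 genes.

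The 4 dual oxidase genes form a head-to-head cluster on mouse chromosome 2 (GRCm38, GENCODE M21). Duox2 (chr2:122279247-122298449, minus strand) and Duoxa2 (chr2:122298900-122302885, plus strand) start 450 bases apart on opposite strands, and Duoxa1 (chr2:122302191-122313730, minus strand) and Duox1 (chr2:122315672-122347972, plus strand) start 1941 bases apart. The 3' ends of Duoxa2 and Duoxa1 overlap over 682 exonic bases, 42.8% of Duoxa2 and 17.1% of Duoxa1, and the sources used here give no strand setting for the counting. Of the other members, Noxo1 (chr17:24696234-24700529, plus strand) shares 70.4% of its exonic bases with the antisense gene Tbl3, Nox1 (chrX:134086421-134221956, minus strand) 12.1% with Cstf2, Ncf1 (chr5:134220053-134229625, minus strand) 11.1% with Gtf2ird2 and Noxa1 (chr2:25085667-25095149, minus strand) 3.09% with Entpd8. Cybb (chrX:9435252-9487771, minus strand) and Nos2 (chr11:78920787-78960254, plus strand) overlap no other gene's exons.

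The 250 bases before the RefSeq start of a gene (GRCm38.p6) are shown for Duoxa2 (chr2:122298650-122298899, plus strand), which lie between Duox2 and Duoxa2. They are also shown for Duoxa1 (chr2:122313731-122313980, minus strand) and Duox1 (chr2:122315422-122315671, plus strand), which face each other across the second gap of the cluster. The fourth is Cybb (chrX:9469325-9469574, minus strand), the phagocyte gene that holds the same TGAATCA letters as Duoxa2. The sequences read 5' to 3' along the gene, with motif matches in capitals.
Duoxa2: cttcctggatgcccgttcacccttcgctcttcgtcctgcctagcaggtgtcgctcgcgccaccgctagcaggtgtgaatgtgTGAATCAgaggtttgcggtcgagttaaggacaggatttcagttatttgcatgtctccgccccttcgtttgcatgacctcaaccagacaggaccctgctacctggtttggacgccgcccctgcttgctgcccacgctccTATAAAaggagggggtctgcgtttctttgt
Duoxa1: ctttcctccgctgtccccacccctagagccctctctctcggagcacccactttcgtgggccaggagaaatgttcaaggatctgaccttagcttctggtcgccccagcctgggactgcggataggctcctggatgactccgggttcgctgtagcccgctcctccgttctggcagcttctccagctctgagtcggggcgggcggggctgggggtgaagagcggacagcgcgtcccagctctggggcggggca
Duox1: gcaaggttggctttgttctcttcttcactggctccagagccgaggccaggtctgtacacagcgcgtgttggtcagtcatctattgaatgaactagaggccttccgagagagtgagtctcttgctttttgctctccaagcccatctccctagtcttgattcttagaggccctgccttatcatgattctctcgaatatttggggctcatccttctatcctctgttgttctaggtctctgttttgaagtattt
Cybb: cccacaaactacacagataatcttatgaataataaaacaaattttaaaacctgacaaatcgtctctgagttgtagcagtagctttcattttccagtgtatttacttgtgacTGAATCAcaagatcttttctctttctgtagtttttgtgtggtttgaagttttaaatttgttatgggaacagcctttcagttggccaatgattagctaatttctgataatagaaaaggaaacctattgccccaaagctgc
The letters of a STAT site (TTCNNNGAA), an AP-1-like site (TGANTCA, with any middle base), an NF-kB site and a TATA box were searched on both strands. The search ran from 250 bases before to 50 after the start in the 9 members with a window in the promoter table used here. Its RefSeq starts can differ from the GENCODE starts given above: the windows of Nox1 and Cybb lie wholly, and that of Duox2 mostly, inside the annotated gene. Duoxa2 held a match to the AP-1-like pattern (TGAATCA) from base -168 and a TATA match (TATAAA) from base -30. Cybb held the same TGAATCA letters from base -139. Outside the sequences shown, Nox1 held an NF-kB match from base -91, Noxa1 one from base -249 and Ncf1 a STAT match from base -88. No match to any of the 4 was present in these windows of Duox2, Duox1, Duoxa1 or Noxo1. Of 32851 windows of the same length, 8.3% held the STAT letters, 7.81% the AP-1-like letters, 8.46% the NF-kB letters and 13.6% the TATA letters. A match is a description of the letters only.

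Most of these genes were higher in colitis than in the control of the same model. In TRUC 8 of the 10 were higher and 1 lower than in Rag2 controls by edgeR's quasi-likelihood test at an adjusted p under 0.05, where 22.4% of all genes tested were called higher and 23.4% lower. In DSS 6 were higher and 2 lower than in wild-type controls (all genes 17.7% and 16.3%), and in IL-10 deficiency 8 were higher and 1 lower (all genes 27.2% and 26.1%). In DNBS 4 were higher and none was lower (all genes 3.95% and 2.21%). Against Rag1 controls 7 were higher and 1 lower in TCT (all genes 16.1% and 14%), and likewise 7 and 1 in anti-CD40 (all genes 10.9% and 10.7%). The median log2 fold change of the 10 genes ran from 1.36 in DNBS to 2.87 in DSS, beside medians of -0.03 to 0.02 over all genes tested. Duox2, Duoxa2, Duoxa1 and Nos2 were called higher in all 6 models, Cybb and Ncf1 in all but DNBS, and Noxo1 was called lower in all but DNBS, as the plot of each mouse's level shows. A gene whose mice all lay above those of the control was common, making up 15.6% of all genes tested in DNBS, the lowest share, and 28.8% in TRUC, the highest, so separation without overlap is a description and not a call. In whole tissue, a change in the number of cells that express a gene and a change in the RNA per cell cannot be told apart. The p-values rest on a spread estimated for each gene over the mice of all 9 groups together. Variable mice of any group therefore enter the tests of every model. Changes below are log2 fold changes ± their standard error (SE) unless a fold is named.

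**Figure D1:**
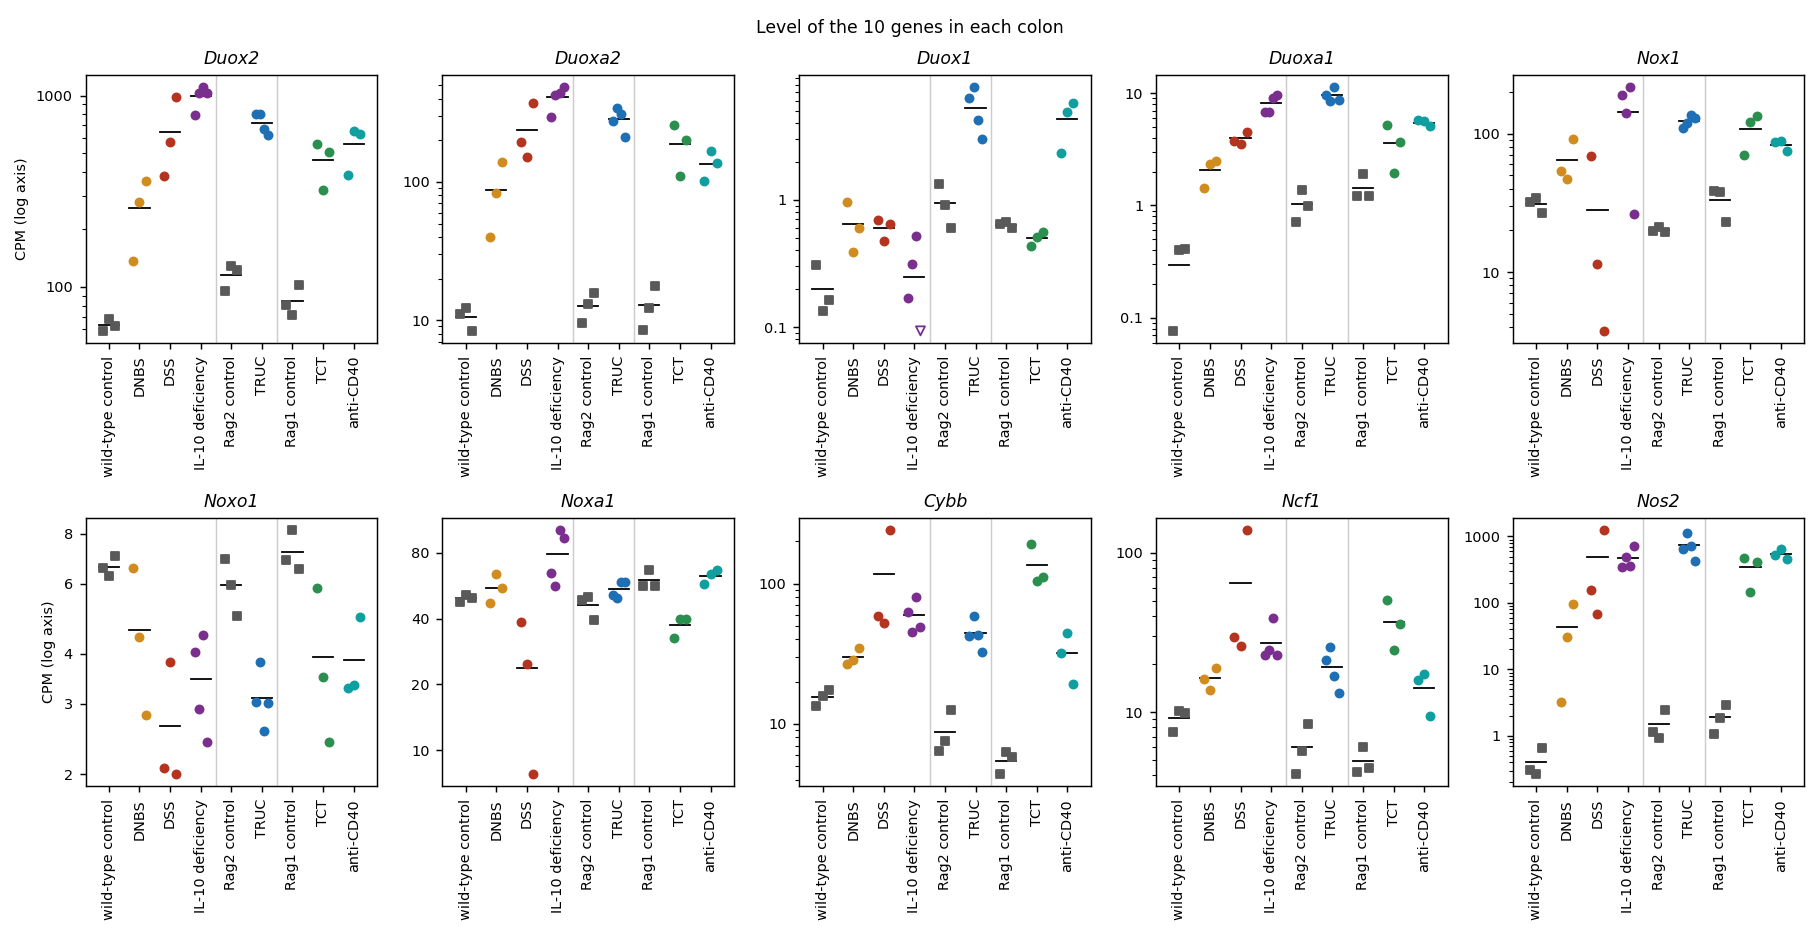
Level of each of the 10 genes (CPM, log axis) in every mouse of the 9 groups, 1 point a mouse, with a bar at the group mean and an open triangle for a count of 0. Duox2, Duoxa2, Duoxa1, Cybb, Ncf1 and Nos2 lie above the control of their model in every model without overlap, and Noxo1 lies below it in all models but DNBS.

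Duox2, the dual oxidase of the colon surface, rose in all 6 models, from 4.07-fold in DNBS to 15.7-fold in IL-10 deficiency. It stood at 59.0, 68.2 and 62.6 CPM in wild-type controls, 95.5, 129 and 123 in Rag2 controls and 81.0, 71.2 and 102 in Rag1 controls. In the models set against wild-type controls it stood at 379.8, 570.4 and 987 CPM in DSS, 137, 278 and 358 in DNBS and 789.8, 1034, 1111 and 1029.8 in IL-10 deficiency. In the Rag-deficient models it stood at 797, 799, 668 and 623 CPM in TRUC, 559, 321 and 504 in TCT and 385, 654 and 633 in anti-CD40. Every diseased mouse was above every control mouse of any group, and the lowest diseased mouse was the first of the DNBS group. The smallest change was 2.02 ± 0.31 (adjusted p = 0.000729) in DNBS and the largest 3.97 ± 0.33 (adjusted p = 1.69e-08) in IL-10 deficiency, with 2.44 ± 0.32 (adjusted p = 2.56e-06) in TCT, all from edgeR. In order of mean level the groups were IL-10 deficiency, TRUC, DSS, anti-CD40, TCT, DNBS, Rag2 control, Rag1 control and wild-type control. The ranges of neighbouring groups in this order overlapped except between DNBS and Rag2 controls and between Rag1 and wild-type controls.

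Duoxa2, which the DUOX2 protein needs to mature, rose in all 6 models, and its fold change was the larger of the pair in each. Wild-type controls stood at 11.1, 12.3 and 8.37 CPM, Rag2 controls at 9.47, 13.0 and 15.8 and Rag1 controls at 8.51, 12.2 and 17.6. DSS mice stood at 194, 152 and 373 CPM, DNBS mice at 40.2, 83.1 and 139 and IL-10 deficiency mice at 296, 424, 442 and 488. TRUC mice stood at 277, 340.0, 312 and 212 CPM, TCT mice at 256, 111 and 201 and anti-CD40 mice at 101, 166 and 137. Again no diseased mouse fell within the range of the controls. The rise was 8.25-fold in DNBS (3.04 ± 0.41, adjusted p = 0.000334), 22.3-fold in TRUC (4.48 ± 0.42, adjusted p = 7.10e-08) and 39.0-fold in IL-10 deficiency (5.28 ± 0.44, adjusted p = 1.69e-08). It was 10.6-fold in anti-CD40, 14.8-fold in TCT and 22.6-fold in DSS, with adjusted p of 1.20e-05, 1.97e-07 and 3.36e-07 by edgeR.

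The ratio of the enzyme to its partner was lower in every model than in any control. Per kilobase of exon, the level of Duox2 was 1.26 to 1.76 times that of Duoxa2 in wild-type controls, 1.83 to 2.37 times in Rag2 controls and 1.37 to 2.24 times in Rag1 controls. The ratio was 0.503 to 0.690 in TRUC, 0.461 to 0.885 in DSS and 0.604 to 0.801 in DNBS. It was 0.496 to 0.627 in IL-10 deficiency, 0.513 to 0.680 in TCT and 0.894 to 1.09 in anti-CD40, so the range of every model lay below that of every control. Duoxa2 reads may include some of the antisense Duoxa1, which stood at no more than 11.5 CPM in any mouse, or may lack some from the shared bases. Both genes were also higher relative to the epithelial markers. Against the mean log2 level of the 6 epithelial marker genes in the same mouse, Duox2 was 1.43 higher on the log2 scale in DNBS to 2.98 higher in DSS, and Duoxa2 2.38 in DNBS to 4.18 in TRUC, without overlap with the controls in any of the 6 models. The mean log2 level of the markers itself differed from their controls by -0.17 (TCT) to 1.42 (IL-10 deficiency) on the same scale, and its part in the result was not tested.

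**Figure D2:**
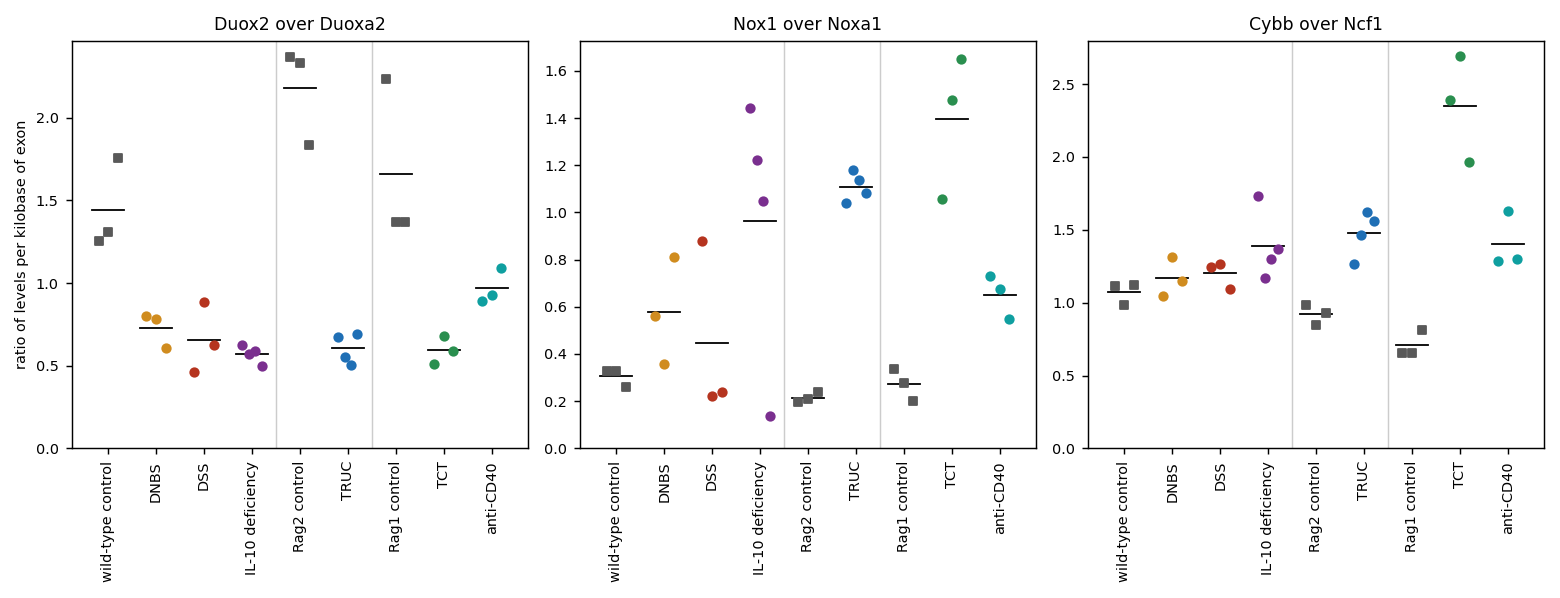
Ratio of the levels per kilobase of exon of partner genes in each mouse (linear axis from 0), by group, with a bar at each group mean. Duox2 over Duoxa2 is 1.26 or more in every control mouse and 1.09 or less in every mouse with colitis, and Nox1 over Noxa1 passes 1 in all TRUC and TCT mice.

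Duox1 and Duoxa1, the second pair of the cluster, were rare transcripts and did not move together. Duox1 passed the test in only 2 of the 6 models, TRUC and anti-CD40, while Duoxa1 was higher in all 6. Duox1 counted 4, 2 and 2 reads in the wild-type controls, 15, 12 and 8 in Rag2 controls and 8, 9 and 7 in Rag1 controls. It counted 85, 87, 46 and 37 reads in TRUC and 25, 57 and 80 in anti-CD40, which is 6.27, 7.74, 4.22 and 3.01 CPM and 2.35, 4.89 and 5.74 CPM. These mice were all above the highest control of any group, with changes of 2.48 ± 0.42 (adjusted p = 6.86e-05) in TRUC and 2.75 ± 0.46 (adjusted p = 0.000249) in anti-CD40 by edgeR. In the other 4 models Duox1 counted 11, 7 and 8 reads (DSS), 16, 5 and 7 (DNBS), 2, 3, 6 and 0 (IL-10 deficiency) and 5, 6 and 6 (TCT). With so few reads only large changes could have been detected, and the adjusted p were 0.0526 (DSS), 0.0930 (DNBS), 0.682 (TCT) and 0.690 (IL-10 deficiency). The DSS change of 1.55 on the log2 scale passed the test in 8 other settings of the analysis. Some 7.95% of the 50-base windows of Duox1 exons also occur in Duox2, whose level per kilobase was at least 56.0 times that of Duox1 in every mouse, so the Duox1 counts are uncertain where reads cannot be assigned. TRUC and anti-CD40 held the 2 highest Duox1 levels although IL-10 deficiency, with 0.249 CPM on average, held the highest Duox2.

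Duoxa1 stood at 0.0762, 0.400 and 0.410 CPM in wild-type controls, 0.708, 1.38 and 0.982 in Rag2 controls and 1.22, 1.92 and 1.20 in Rag1 controls, on 1, 6 and 5 reads in the first of these groups. It reached 3.78, 3.56 and 4.56 CPM in DSS, 1.43, 2.33 and 2.47 in DNBS and 6.83, 6.86, 9.09 and 9.72 in IL-10 deficiency. It reached 9.59, 8.54, 11.5 and 8.79 CPM in TRUC, 5.24, 1.97 and 3.71 in TCT and 5.73, 5.66 and 5.10 in anti-CD40. Each model lay above its own control without overlap, and TCT came nearest, its lowest mouse being only just above the highest Rag1 control. The changes were 3.21 ± 0.33 (adjusted p = 2.06e-07) in TRUC, 4.73 ± 0.39 (adjusted p = 1.69e-08) in IL-10 deficiency and 1.32 ± 0.33 (adjusted p = 0.00411) in TCT, and lay between 1.91 and 3.69 in the other 3. Duoxa2 on the other strand was higher in the same mice. Reads from the shared bases may have been counted for either gene or for neither, since the settings are not given, and how much was not tested.

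Nox1, the catalytic subunit of the colonic epithelial oxidase, rose in TRUC, IL-10 deficiency and TCT, and did not pass the test in anti-CD40, DNBS or DSS. Control mice stood at 32.0, 34.4 and 26.6 CPM (wild type), 19.7, 21.3 and 19.3 (Rag2) and 38.8, 38.2 and 23.2 (Rag1). TRUC mice stood at 109, 119.7, 137 and 129.6 CPM, TCT mice at 70.6, 121 and 134 and anti-CD40 mice at 86.5, 88.0 and 74.4, all above their controls. DNBS mice stood at 53.6, 46.7 and 91.7 CPM, also above, while DSS mice stood at 68.9, 11.3 and 3.76 and IL-10 deficiency mice at 192, 141, 218 and 26.3. These last 2 groups were the only ones to span the controls: 1 DSS mouse was above all wild-type mice and the other 2 below, and mouse 4 of IL-10 deficiency was below all wild-type mice while mice 1 to 3 were far above them. The change was 2.62 ± 0.63 (adjusted p = 0.00179) in TRUC, 2.22 ± 0.61 (adjusted p = 0.00429) in IL-10 deficiency and 1.70 ± 0.63 (adjusted p = 0.0428) in TCT by edgeR. It was 1.31 ± 0.62 (adjusted p = 0.134) in anti-CD40, 1.04 ± 0.62 (adjusted p = 0.306) in DNBS and -0.14 ± 0.62 (adjusted p = 0.888) in DSS. With the same 2 groups fitted alone the anti-CD40 change passed (adjusted p = 0.000799), and DESeq2 called both it (adjusted p = 2.21e-09) and the DNBS change (0.00166). The anti-CD40 change also passed against Rag2 controls (2.04, adjusted p = 0.0230), and against Rag1 controls when DSS mouse 5 was left out of the fit. In TCT the call was lost when any 1 of the Rag1 controls, TCT mouse 3 or TCT mouse 5 was left out, with adjusted p of 0.0763 to 0.137.

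Libraries low in the homeobox genes of the distal colon included both extremes of Nox1 and Noxa1, as their plot shows. IL-10 deficiency mouse 4, with 1.25 CPM of these genes, had 26.3 CPM of Nox1, and DSS mouse 8, the next lowest with 233 CPM, had the least Nox1 and Noxa1 of all 29 mice. DSS mouse 5 with 414 CPM and IL-10 deficiency mouse 3 with 420.3 CPM came next, and the latter had the highest Nox1 and Noxa1 of all. DSS mouse 6, with 499 CPM, had the second lowest Nox1. Cdx2, a homeobox gene of the intestine that the epithelial markers include, stood at 3.89 to 8.12 CPM in wild-type controls and 11.3 to 469 in IL-10 deficiency. The part of these genes in the Nox1 result was not tested. Without IL-10 deficiency mouse 4 the Nox1 log2 fold change was 2.55 (adjusted p = 0.000639), and without both mice 3 and 4, an alternative chosen after seeing the data, it was 2.42 (adjusted p = 0.00249). In DSS it was 0.38 without mouse 8, 0.24 without mouse 6 and -2.04 without mouse 5, of which the last passed the test (adjusted p = 0.00761).

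**Figure D3:**
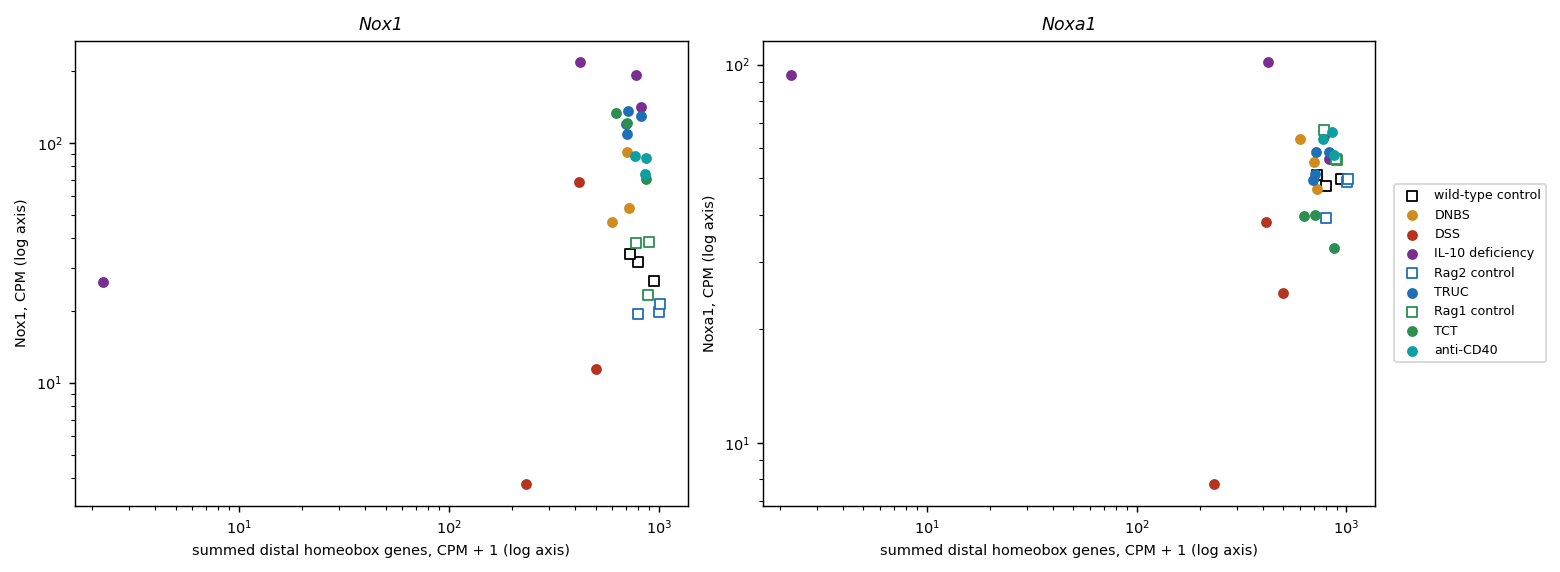
Nox1 (left) and Noxa1 (right) level of each mouse in CPM against the summed level of the 4 distal colon homeobox genes in CPM + 1, all on log axes, coloured by group with open squares for controls. IL-10 deficiency mouse 4 lies alone at 1.25 CPM of homeobox genes, and DSS mouse 8 has the lowest Nox1 and Noxa1, at 3.76 and 7.76 CPM.

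Noxo1, the organizer that holds NOX1 in its active form, was lower in 5 models and not called in DNBS. It stood at 6.55, 6.26 and 7.05 CPM in wild-type controls, 6.91, 5.97 and 4.98 in Rag2 controls and 6.89, 8.18 and 6.54 in Rag1 controls. It stood at 2.08, 3.83 and 2.00 CPM in DSS, 4.05, 2.91, 4.46 and 2.40 in IL-10 deficiency and 6.57, 4.42 and 2.81 in DNBS, and at 3.02, 3.83, 2.57 and 3.01 in TRUC, 5.85, 3.50 and 2.41 in TCT and 3.29, 3.34 and 4.95 in anti-CD40. The 5 models lay wholly below their controls and DNBS mouse 11 lay within them. The change was -1.32 ± 0.32 (adjusted p = 0.00270) in DSS, -0.93 ± 0.30 (adjusted p = 0.0126) in TRUC, -0.93 ± 0.29 (adjusted p = 0.0106) in IL-10 deficiency, -0.89 ± 0.31 (adjusted p = 0.0441) in anti-CD40 and -0.87 ± 0.31 (adjusted p = 0.0378) in TCT by edgeR. In DNBS it was -0.51 ± 0.31 (adjusted p = 0.313). The call was lost in TCT against wild-type controls (adjusted p = 0.0719) and Rag2 controls (0.155), in anti-CD40 against Rag2 controls (0.156), in TRUC without Rag2 control mouse 1 (0.0578), and, in TCT and anti-CD40 alike, without any 1 of the Rag1 controls and without any 1 of 2 treated mice (TCT 3 and 5, anti-CD40 6 and 7). Its antisense neighbour Tbl3, which covers most of the Noxo1 exons, stood at 34.0 to 38.6 CPM in wild-type controls, 33.8 to 46.4 in DSS and 21.1 to 28.0 in IL-10 deficiency, several times the level of Noxo1, so the Noxo1 counts are uncertain.

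Noxa1, the activator of NOX1, passed the test in DSS and IL-10 deficiency, in opposite directions. Wild-type controls held 47.8, 51.0 and 49.8 CPM, Rag2 controls 48.9, 50.0 and 39.3 and Rag1 controls 56.1, 67.0 and 56.3. It was lower in DSS (38.4, 24.8 and 7.76 CPM, -1.06 ± 0.30, adjusted p = 0.00916) and higher in IL-10 deficiency (64.9, 56.3, 102 and 93.8 CPM, 0.68 ± 0.28, adjusted p = 0.0464). DSS mice lay below the wild-type controls and IL-10 deficiency mice above them, with DSS mouse 8 lowest of all. The DSS change was -0.65 without mouse 8 (adjusted p = 0.0300) and was not called with the 2 groups fitted alone (0.157) or by DESeq2 (0.0756). The IL-10 deficiency call was lost without mouse 3 (0.53, adjusted p = 0.134), without mouse 4 (0.58, 0.110), without any 1 of the wild-type controls (adjusted p of 0.0942 to 0.114) and without both mice 3 and 4 (0.29, 0.468). TCT mice held 32.7, 40.0 and 39.7 CPM, all below their Rag1 controls, with a change of -0.68 ± 0.30 (adjusted p = 0.0922) that the 2 groups fitted alone called (adjusted p = 0.00806). TRUC (49.6 to 58.6 CPM), DNBS (46.9 to 63.7) and anti-CD40 (57.8 to 66.4) overlapped their controls. Against the mean log2 level of the epithelial markers, Noxa1 was lower without overlap in DSS (-1.59), IL-10 deficiency (-0.78) and TCT (-0.51). It overlapped the controls in TRUC, DNBS and anti-CD40. With the summed CPM of the markers, a measure added after seeing the data, DSS (-1.12) and IL-10 deficiency (-0.21) overlapped them.

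The ratio of the subunits of the NOX1 complex was not constant. Per kilobase, Nox1 was 0.261 to 0.330 times Noxa1 in wild-type controls, 0.198 to 0.241 in Rag2 controls and 0.201 to 0.338 in Rag1 controls. The ratio was 1.04 to 1.18 in TRUC, 1.06 to 1.65 in TCT and 0.548 to 0.732 in anti-CD40, above all controls. It was 0.358 to 0.812 in DNBS, again above, 0.224 to 0.878 in DSS and 0.137 to 1.44 in IL-10 deficiency, where DSS mice 6 and 8 and IL-10 deficiency mouse 4 fell below the wild-type range. Against the mean log2 level of the epithelial markers Noxo1 was lower without overlap in all 6 models, by -0.77 (TCT) to -2.36 (IL-10 deficiency), and with the summed CPM of the markers in its place, a measure added after seeing the data, it overlapped the controls in DNBS (-0.77). On the first measure Nox1 was higher without overlap in TRUC (2.32), TCT (1.85) and anti-CD40 (1.05). It overlapped the controls in DNBS (0.50), IL-10 deficiency (0.44) and DSS (-1.34).

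Cybb and Ncf1, the membrane and cytosolic subunits of the phagocyte oxidase, were called higher in every model except DNBS, where both lay above the controls without passing. Cybb stood at 13.3, 15.8 and 17.5 CPM in wild-type controls, 6.37, 7.58 and 12.5 in Rag2 controls and 4.38, 6.26 and 5.77 in Rag1 controls. TCT mice had the highest group mean, with 191, 105 and 111 CPM, and DSS mice stood at 58.8, 52.0 and 241, where mouse 8 was far above the other 2. IL-10 deficiency mice stood at 62.9, 45.5, 80.1 and 49.1 CPM, TRUC mice at 42.4, 59.2, 43.2 and 32.5, anti-CD40 mice at 32.2, 44.5 and 19.4 and DNBS mice at 26.8, 28.5 and 34.7. All 6 models were above their own controls without overlap. The change was 4.63 ± 0.49 (adjusted p = 1.42e-07) in TCT, 24.8-fold, and 2.92 ± 0.44 (adjusted p = 3.95e-05) in DSS, 7.55-fold. Without DSS mouse 8 the latter was 1.84 (adjusted p = 0.000261). The change was 1.94 in IL-10 deficiency, 2.32 in TRUC and 2.54 in anti-CD40, with adjusted p of 0.000502, 0.000176 and 0.000551 by edgeR. In DNBS it was 0.95 ± 0.43 (adjusted p = 0.172), which DESeq2 (adjusted p = 4.14e-05) and edgeR on the 2 groups alone (0.0312) called. Against wild-type controls, the TCT change was 3.13, Cybb being lower in the Rag1 than in the wild-type controls.

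Ncf1 stood at 7.54, 10.1 and 9.84 CPM in wild-type controls, 4.07, 5.66 and 8.46 in Rag2 controls and 4.22, 6.04 and 4.48 in Rag1 controls. It stood at 29.8, 26.0 and 139 CPM in DSS, 16.2, 13.6 and 19.0 in DNBS and 22.9, 24.5, 38.9 and 22.7 in IL-10 deficiency. It stood at 21.2, 25.4, 16.8 and 13.1 CPM in TRUC, 50.5, 24.6 and 35.8 in TCT and 15.8, 17.2 and 9.40 in anti-CD40. No model overlapped its own control, and DSS mouse 8 was again the highest mouse. Changes were 2.91 ± 0.48 (adjusted p = 6.53e-05) in TCT, 2.82 ± 0.47 (adjusted p = 9.40e-05) in DSS and 1.65 ± 0.45 (adjusted p = 0.00455) in TRUC by edgeR, and the DSS value was 1.60 without mouse 8 (adjusted p = 0.00109). IL-10 deficiency (1.57 ± 0.44, adjusted p = 0.00430) and anti-CD40 (1.52 ± 0.48, adjusted p = 0.0257) also passed, and DNBS (0.83 ± 0.45, adjusted p = 0.265) did not, although DESeq2 called it (adjusted p = 0.00473). The anti-CD40 call was lost when any 1 of the Rag1 controls or anti-CD40 mouse 6 or 7 was left out (adjusted p of 0.0514 to 0.108) and against Rag2 controls (0.0624). Per kilobase Cybb was 0.983 to 1.12 times Ncf1 in wild-type controls and 0.654 to 0.813 times in Rag1 controls, and 1.97 to 2.70 times in TCT, above every mouse of the other 8 groups.

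The partners of the phagocyte oxidase moved the same way. Of 5 genes (Cyba, Ncf4, Rac1, Rac2, Cybc1), 5 were called higher in IL-10 deficiency, 4 in TRUC, 4 in DSS, 4 in TCT, 3 in anti-CD40 and 1 in DNBS, and none lower. Their median log2 fold change was 0.34 in DNBS and 1.66 in TCT. The share of all genes tested that was called higher ran from 3.95% (DNBS) to 27.2% (IL-10 deficiency). Cyba, the p22phox subunit that pairs with both gp91phox and NOX1, was higher in all 6, from 69.6 CPM on average in wild-type controls to 142 in DNBS (log2 fold change 1.03, adjusted p = 0.00174) and 293 in IL-10 deficiency (2.08, 1.69e-08). Ncf4 (p40phox) changed by up to 2.38 (TCT) and was called in all models but DNBS (0.20). Nox4, an oxidase of stromal cells, was higher in DSS (1.28) and DNBS (1.60), at no more than 2.33 CPM in any mouse.

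Many markers of phagocytes were called higher too, beside 3.95% (DNBS) to 27.2% (IL-10 deficiency) of all genes tested. Of 6 neutrophil genes 6 were higher in TRUC and DSS and 5 in each other model, with S100a8 at no more than 0.383 CPM and Cxcr2 at 0 in all control mice. S100a8, S100a9, Csf3r and Cxcr2 were higher in all 6 models, and Ccr2 and C1qa of the macrophage list in 6 and 5. S100a8 reached 379 to 518 CPM in TRUC and 4.90 to 32.3 in DNBS. Of 6 macrophage and monocyte genes 6 were higher in TRUC, 6 in DSS, 6 in TCT, 3 in IL-10 deficiency, 2 in anti-CD40 and 1 in DNBS. Their summed level ran from 189 to 229 CPM in wild-type controls to 510.4 to 1111 in DSS, and from 91.0 to 122 in Rag1 controls to 483 to 679 in TCT. Against the mean log2 level of these genes Cybb was 0.30 (DNBS) to 1.50 (TCT) higher on the log2 scale, without overlap in all models but DNBS, while Ncf1 differed by -0.22 (TCT) to 0.43 (DSS). Against the neutrophil genes the direction depended on the measure. Relative to their mean log2 level Cybb differed by -3.97 (DSS) to -0.43 (TCT), and relative to their summed CPM, a measure added after seeing the data, by -0.46 (TRUC) to 3.39 (TCT). Ncf1 differed by -4.55 (TRUC) to -2.08 (anti-CD40) on the first measure and by -1.14 (TRUC) to 1.66 (TCT) on the second. Ly6g, at 129.9 to 144 CPM in wild-type controls, made up most of their neutrophil sum of 131 to 145 CPM. The part of cell numbers in the Cybb and Ncf1 changes was not tested.

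Nos2, the inducible nitric oxide synthase, showed the widest range of the 10 genes. It was close to the limit of counting in wild-type controls, with 4, 4 and 8 reads or 0.305, 0.266 and 0.656 CPM, and stood at 1.15, 0.918 and 2.49 CPM in Rag2 and 1.05, 1.84 and 2.93 CPM in Rag1 controls. It reached 642, 1143, 732 and 428 CPM in TRUC, 522, 656 and 459 in anti-CD40 and 471, 149 and 409 in TCT. It reached 158, 69.4 and 1251 CPM in DSS, 343, 486, 365 and 718 in IL-10 deficiency and 3.28, 31.2 and 95.1 in DNBS. Every diseased mouse was above every control, but the DNBS mice spanned more than an order of magnitude and DNBS mouse 11 was only just above the highest Rag1 control. The rise was 477-fold in TRUC (8.90 ± 1.14, adjusted p = 3.23e-06), 177-fold in TCT (7.47 ± 1.08, adjusted p = 1.24e-05) and 281-fold in anti-CD40 (8.14 ± 1.11, adjusted p = 3.78e-05). Against wild-type controls the changes were 10.23 ± 1.28 (adjusted p = 5.56e-06) in DSS, 10.19 ± 1.27 (adjusted p = 1.61e-06) in IL-10 deficiency and 6.72 ± 1.21 (adjusted p = 0.00297) in DNBS, all from edgeR. These folds rest on 4 to 8 reads in each wild-type mouse, and the DSS value was 8.13 without mouse 8 and the DNBS value 5.38 without mouse 16, both still past the threshold (adjusted p = 6.75e-06 and 0.0128). The order of group means was TRUC, anti-CD40, DSS, IL-10 deficiency, TCT, DNBS, Rag1 control, Rag2 control and wild-type control. Ranges of neighbours overlapped except between TCT and DNBS, DNBS and Rag1 controls, and Rag2 and wild-type controls.

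Genes that supply or limit NOS2 moved less uniformly. Of 12 genes of nitric oxide and arginine handling, 7 were higher and 1 lower in DSS (all genes 17.7% and 16.3%). The counts were 5 and 1 in TRUC (22.4% and 23.4%) and 5 and 2 in IL-10 deficiency (27.2% and 26.1%). They were 4 and 0 in TCT (16.1% and 14%) and 3 and 1 in DNBS (3.95% and 2.21%). In anti-CD40 2 were higher and 1 lower (10.9% and 10.7%). Medians ran from 0.23 (TCT) to 1.25 (DSS) on the log2 scale. Ddah1, which clears methylated arginines that inhibit nitric oxide synthases, was higher in all 6, at 3.90 to 6.34 CPM in Rag2 controls against 139 to 177 in TRUC (log2 fold change 4.92, adjusted p = 2.17e-08) and with its smallest change in DNBS (2.73, 0.000616). Gch1, the first enzyme of the synthesis of the cofactor tetrahydrobiopterin, was higher in all 6, by 1.21 (DNBS) to 2.51 (IL-10 deficiency). Arg1, which competes with NOS2 for arginine, was called in all but anti-CD40, from 0.453 to 0.995 CPM in Rag2 controls to 26.9 to 77.4 in TRUC.

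The size of the change differed between the 6 models for 9 of the 10 genes, by edgeR's F test of equal changes against own controls, a test that 60.5% of all genes passed. Duoxa1 differed most clearly (adjusted p = 1.40e-05), being smallest in TCT (1.32) and largest in IL-10 deficiency (4.73). These 2 models have different controls, with Duoxa1 means of 1.45 CPM (Rag1) and 0.295 CPM (wild type). Set against the wild-type controls, the TCT change was 3.57. Cybb (6.98e-05) ran from 0.95 in DNBS to 4.63 in TCT, and Duox2 (0.000191) and Duoxa2 (0.000413) changed least in DNBS and most in IL-10 deficiency. Duox1 (0.000168), Noxa1 (0.000438) and Ncf1 (0.00168) passed with models in which they were not called, and Nox1 (0.0230) and Nos2 (0.0143) passed less clearly. The Nox1 difference did not pass without DSS mouse 6 (0.0749) or IL-10 deficiency mouse 3 (0.0518), nor the Nos2 difference without DNBS mouse 14 (0.0666). Noxo1 alone did not pass (0.346), and its changes lay between -1.32 and -0.51. A share that high over all genes leaves little that is particular to these 9.

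**Figure D4:**
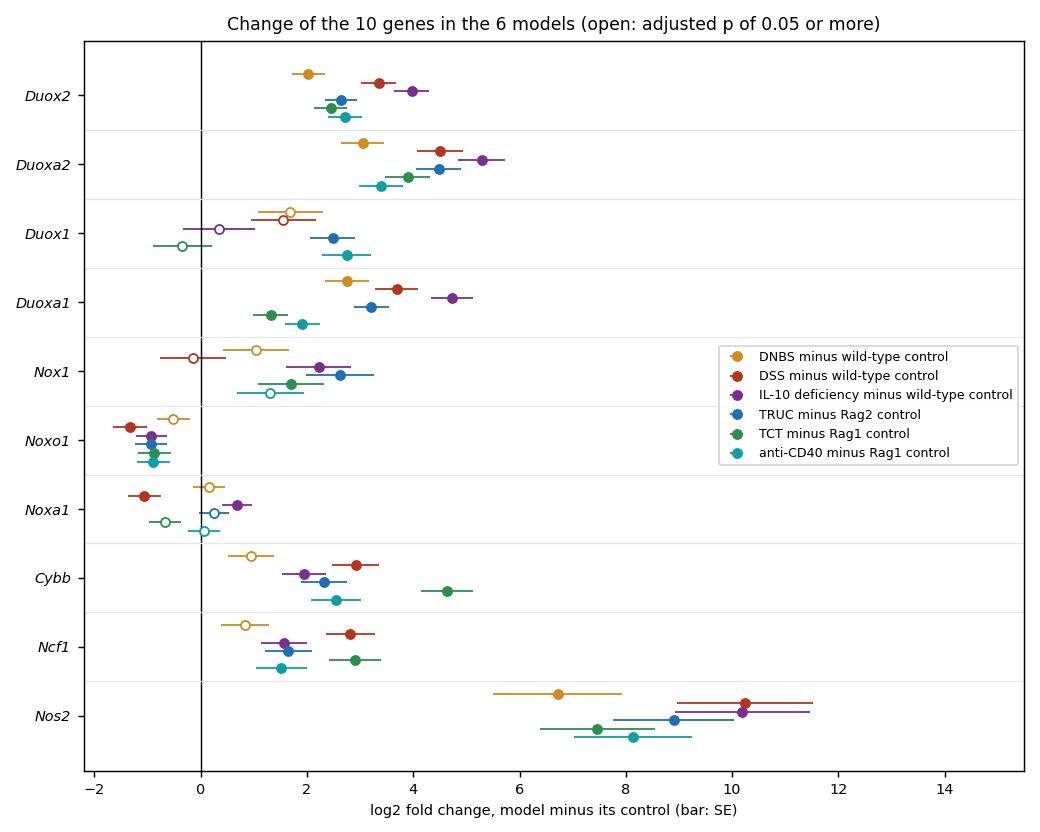
Log2 fold change of each gene in each model against its own control, with bars of 1 standard error from edgeR and filled points where the adjusted p is under 0.05. Nos2 changes most in every model, 6.72 in DNBS to 10.23 in DSS, and Noxo1 is the gene below 0 in all 6.

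Because the Rag transcripts of the TCT and the labelled Rag1 control libraries differed, TCT was also compared with the other controls. Against wild-type controls 7 members were higher and none lower (all genes 16.9% and 13.8%), and against Rag2 controls also 7 and none (all genes 17.4% and 14.6%). Duox2, Duoxa2, Duoxa1, Nox1, Cybb, Ncf1 and Nos2 were the 7 in each comparison, Nox1 at 1.81 (adjusted p = 0.0325) and 2.43 (0.00592) by edgeR. Anti-CD40 against Rag2 controls gave 7 higher and none lower (all genes 12.4% and 11.8%), where Nox1 took the place that Ncf1 had against the Rag1 controls. In the comparisons across strains, strain and treatment cannot be told apart.

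The Rag2 controls had no colitis model applied and share the Balb/C background of the wild-type controls. Between Rag2 and wild-type Balb/C controls 2 were called higher and none lower (all genes 3.25% and 4.86%). These were Duox1 (2.19 ± 0.59, adjusted p = 0.0197) and Duoxa1 (1.76 ± 0.45, adjusted p = 0.0126), on 2 to 4 and 1 to 6 reads in the wild-type mice. Leaving out Rag2 control mouse 1 or 2 or wild-type mouse 2 or 4 ended the Duox1 call, and leaving out Rag2 control mouse 2 or wild-type mouse 1 the Duoxa1 call. Duox2 (0.87 ± 0.30, adjusted p = 0.0842) and Nos2 (1.92 ± 1.48, adjusted p = 0.525) were higher in every Rag2 control than in any wild-type mouse without passing, and Nox1 (-0.62 ± 0.63, adjusted p = 0.648) and Cybb (-0.81 ± 0.44, adjusted p = 0.323) lower. With the 2 groups fitted alone, these 6 genes passed.

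Genes that remove hydrogen peroxide and superoxide were called higher more often than lower. Of 22 such genes, 17 were higher and 1 lower in IL-10 deficiency (all genes 27.2% and 26.1%). In TRUC the counts were 14 and 3 (22.4% and 23.4%) and in DSS 9 and 5 (17.7% and 16.3%). In TCT they were 7 and 2 (16.1% and 14%) and in anti-CD40 6 and 1 (10.9% and 10.7%). In DNBS 6 were higher and 0 lower (3.95% and 2.21%). Medians ran from 0.14 (DSS) to 0.97 (IL-10 deficiency). Gpx2, the glutathione peroxidase of intestinal epithelium, was higher in all 6, from 263 to 285 CPM in Rag2 controls to 1269 to 1691 in TRUC (log2 fold change 2.38, adjusted p = 5.30e-07), with its smallest change in DNBS (1.17, 0.0117). Hmox1, the haem oxygenase, was higher in all 6 by 1.18 (anti-CD40) to 3.33 (DSS). Srxn1, which repairs peroxiredoxins, and Slc7a11, the cystine importer, were called in all but DNBS, by up to 2.13 and 3.77.

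Lpo, the lactoperoxidase that turns hydrogen peroxide into antimicrobial oxidants, was called in all 6 models but in opposite directions, while the peroxidases Mpo and Epx had too few reads to be tested. It was higher in DSS (2.96), IL-10 deficiency (2.20) and DNBS (1.20) and lower in TCT (-6.10), TRUC (-1.18) and anti-CD40 (-0.86), all on the log2 scale with adjusted p of at most 0.0360 by edgeR. Its controls stood at 3.53 to 5.79 CPM in wild-type controls, 588 to 610.1 in Rag2 controls and 656 to 873 in Rag1 controls. The 3 models set against wild-type controls were the ones called higher, and TCT mice, with 9.26 to 12.4 CPM, were closer to the wild-type than to the Rag1 controls.

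The cytokines known to induce these genes rose in part. Of 7 tested, 6 were higher in DSS, 4 each in TRUC and IL-10 deficiency, 3 in TCT, 2 in anti-CD40 and 1 in DNBS. Il4 was lower in IL-10 deficiency. The share of all genes called higher ran from 3.95% in DNBS to 27.2% in IL-10 deficiency. Il1b was higher in all 6, from 0.733 to 1.72 CPM in wild-type controls to 28.8 to 66.8 in IL-10 deficiency and 48.4 to 1291 in DSS, and Tnf in all but DNBS, at 0.459 to 1.95 CPM in Rag2 controls and 18.7 to 66.5 in TRUC. Il22, which acts on epithelial cells to induce Duox2 and Duoxa2, was at 0 reads in wild-type and Rag1 controls. It was not at 0 in Rag2 controls, the control of TRUC. Il22 stood at 1.30 to 3.12 CPM in TRUC, 0.684 to 50.6 in DSS and 0.574 to 2.14 in anti-CD40. Il17a was at 0 reads in all 9 control mice, and reached 0.935 to 1.18 CPM in IL-10 deficiency and 0.0684 to 13.1 in DSS. For these cytokines no fold is given against a control at 0, and the top of each DSS range was mouse 8.

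**Figure D5:**
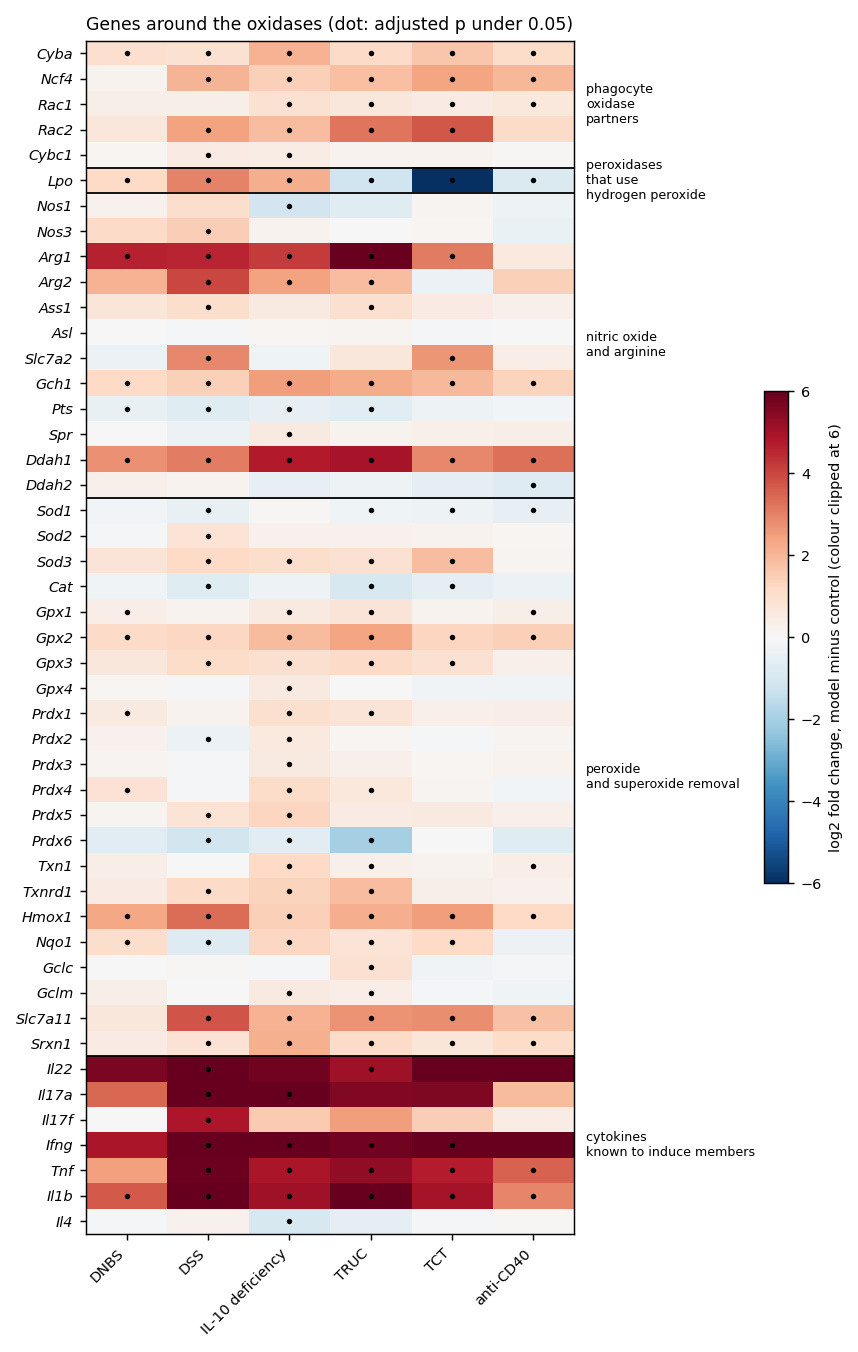
Log2 fold change in each model against its own control (columns, colour clipped at 6 in either direction) of genes of 5 lists (rows), with a dot where the adjusted p is under 0.05. Cyba, Gch1, Ddah1, Gpx2, Hmox1 and Il1b carry a dot in all 6 columns, and Lpo has a dot in all 6 as well, but not in a single direction.

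Other markers give the setting of the epithelial genes. Of all genes tested, 3.95% (DNBS) to 27.2% (IL-10 deficiency) were called higher and 2.21% to 26.1% lower. Of 6 epithelial markers, 3 were higher in TRUC, 5 in IL-10 deficiency, 2 in anti-CD40, 1 higher and 1 lower in DSS and in TCT, and none in DNBS, while 4 of 4 absorptive colonocyte markers were lower in TRUC, 2 in TCT and 1 each in DSS, IL-10 deficiency and anti-CD40. Krt20, a keratin of surface colonocytes, was higher in all models but DNBS, by up to 2.54 on the log2 scale in IL-10 deficiency. Krt8 was lower in DSS (-0.58) and higher in IL-10 deficiency (0.66) and TRUC (0.35), and Cdx2 was lower in TCT (-2.56) and higher in IL-10 deficiency (4.93). Of 4 smooth muscle markers 2 were lower in TRUC and 3 in IL-10 deficiency. Cela1, the 1 pancreas marker tested, was lower in all models but DNBS. None of these lists was tested for a part in the changes of the 10 genes.

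The genes whose pattern over the 29 mice was most like that of a member were found by the root mean square (RMS) difference of log2 levels, each gene centred on its own mean, among 18615 other genes. For Duox2 they were Zc3h12a (0.387), Prdm1 (0.410), Trim40 (0.486), Ripk3 (0.490) and Il4ra (0.525), and Duoxa1 held rank 9 and Duoxa2 rank 56. For Nox1 they included Fgfbp1 (0.732), Syne4 (0.744), Gstp3 (0.781) and Slc28a3 (0.799), and for Cybb Itgb2 (0.280), Lcp2 (0.287), Fgr (0.359), Igsf6 (0.365) and Rasgrp1 (0.376), with Ncf1 at rank 17. Nos2, whose levels varied most, had no gene as close, the nearest being Clca4b (1.22), Cxcl9 (1.32), S100a8 (1.33), Lrg1 (1.38) and Ido1 (1.42). Across mice in 9 groups such likeness reflects differences between groups as well as between mice, and no test was made of it.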

How the data were processed

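RNA-seq of colon segments was performed by the authors, who deposited raw counts, whole numbers per Ensembl gene and mouse without normalization. The submitters' processing notes name Trimmomatic, HISAT2, HTSeq and GRCm38, while versions, strand setting and annotation release are not given in the sources used here. No read was assigned to the 92 spike-ins (total count 0), which did not enter the analysis. Symbols came from the supplied name table and positions from GENCODE M21.

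The quasi-likelihood test of edgeR 4.0.16 (R 4.3.3) was run with TMM scaling and 1 mean per group (9 groups) on the 18616 of 54532 genes whose mean count was 3 or more. Models were tested against their own controls, p-values were adjusted by Benjamini-Hochberg over all genes tested, and 0.05 was the threshold. A standard error is the size of the log2 fold change over the root of its F value. The fit was also run on simulated counts with an equal spread in every gene. That setting does not test changes in genes of few reads or groups that vary more. Levels per kilobase used merged exon length, and a level relative to markers is the member's log2 CPM minus the mean of the log2 CPM of the marker genes in the same mouse, with a prior count of 2. No 2 libraries agreed within sampling noise, the closest pair of a group differing by a chi-square of 3.42 per degree of freedom.

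The members and the gene lists were chosen with earlier results of these data known. All 10 members are named, and a few genes of the lists and of the likeness ranking are not reported here. List genes are named where they were called in the same direction in at least 5 models, or in opposite directions in 2 models, up to 4 a list, and cytokines, marker genes at 0 and Nox4 were named besides, after their values were seen. Alternatives were RLE and upper quartile scaling, no filter and filterByExpr, a threshold of 0.01, edgeR on the 2 groups alone, DESeq2 1.42.0, other controls, a replicate block, and each mouse left out.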

Additional observations from a re-analysis of the deposited data

Results flagged for a closer look

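The change against its own control differed between the 6 models by edgeR's F test for 9 of the 10 genes, each adjusted over all genes tested. The adjusted p was 0.000191 for Duox2, 0.000413 for Duoxa2, 0.000168 for Duox1 and 1.40e-05 for Duoxa1. It was 0.0230 for Nox1, 0.000438 for Noxa1, 6.98e-05 for Cybb, 0.00168 for Ncf1 and 0.0143 for Nos2. DSS, DNBS and IL-10 deficiency share controls, as do TCT and anti-CD40, and 60.5% of all genes passed the same test.

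In the groups of 4 mice, TRUC and IL-10 deficiency, the highest or lowest mouse stood apart from the other 3 in 1 of 20 sets of values: Ncf1 in IL-10 deficiency mouse 3 was 38.9 CPM beside 22.7 to 24.5 CPM in the other mice. Chance flags about 1 in 20 such sets.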

How the results depend on the processing

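Of 48 called changes of the 10 genes over 7 comparisons, 37 stayed past the threshold in the same direction under every alternative run, 11 were lost under at least 1, and 0 were reversed. The lost calls were those of Noxo1 in TRUC, IL-10 deficiency, TCT and anti-CD40, Noxa1 in DSS and IL-10 deficiency, Nox1 in TCT and IL-10 deficiency, Ncf1 in anti-CD40, and Duox1 and Duoxa1 in Rag2 against wild-type controls. Of 22 changes not called, 12 passed under at least 1 alternative. When single mice were left out, the number of the 10 genes called ran from 8 to 9 in TRUC, DSS and IL-10 deficiency, 4 to 5 in DNBS, 6 to 9 in TCT and in anti-CD40, 0 to 3 between Rag2 and wild-type controls, and 8 to 9 for the difference between models.

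DESeq2 called 7 of the 10 in DNBS where edgeR called 4. Settings can also differ in how many of all genes they call, so these counts are no result about the 10 genes alone. Between Rag2 and wild-type controls, where 2 were called, the count was 0 at an adjusted p under 0.01, 6 with edgeR on the 2 groups alone and 5 with DESeq2. With a replicate block the counts were 9 in TRUC, 7 in IL-10 deficiency, where the Nox1 and Noxa1 calls were lost (adjusted p = 0.0524 and 0.0785), and 7 between Rag2 and wild-type controls. The labels do not say that equal numbers mark a pair, and same-numbered mice did not deviate together (r of -0.08 to 0.07), so no pairing is assumed. Changes that were not called and turned direction were Nox1 in DSS (-2.04 to 0.38 as mice were left out, 0.24 without DSS mouse 6), Duox1 in IL-10 deficiency (-0.34 with the replicate block, -0.29 to 0.75 as mice were left out) and Duox1 in TCT (1.29 against wild-type controls). Without IL-10 deficiency mice 3 and 4, chosen after seeing the data, 8 of the 10 were called. For differences relative to cell type markers no share over all genes was computed, and separation without overlap is a description. Of 66 such differences 51 did not overlap. With a prior count of 0.5 the number was 52, and 14 moved by more than the spread between mice. It was 45 with the summed marker CPM, added after seeing the data. With that sum, differences from the neutrophil genes turned direction for Cybb in DNBS (0.24), anti-CD40 (0.73) and IL-10 deficiency (0.20) and for Ncf1 in TCT (1.66) and DNBS (0.12). The causes of these changes were not tested. Groups of 3 or 4 mice, the few reads of Duox1 and Duoxa1 in controls and the unknown strand setting for overlapping genes limit what could be detected.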
